A study of Mus musculus with 4 samples.

Results

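The genes described here encode the nuclear subunits of oxidative phosphorylation (OXPHOS), the respiratory chain and ATP synthase of the inner mitochondrial membrane. They were chosen by symbol in the array's platform annotation, as the Nduf, Sdh, Uqcr, Cox4 to Cox8 and Atp5 subunit names together with Cyc1 and Cycs. The rule found 87 genes, each with 1 transcript cluster (the unit of measurement on this array), among 19505 genes with a symbol. Of these, 36 were placed in complex I, 4 in complex II, 9 in complex III, 20 in complex IV and 17 in complex V, and Cycs, the electron carrier cytochrome c, stood alone. Ndufa4 and its relative Ndufa4l2 were counted with complex IV, where the protein NDUFA4 is now placed.

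RNA came from brain cortex of male mice of the SAMR1 strain, the line kept as the normally ageing counterpart of senescence-prone SAM strains. All mice had been caged singly for 4 months from 7 months of age. From 11 months of age the treated group was given TCQA (tricaffeoylquinic acid, a polyphenol found in plants) by mouth at 5 mg/kg each day for 1 month, while the control group was given MilliQ water. Each group had 2 Clariom S arrays, called TCQA 1 and 2 and water 1 and 2, and nothing in the labels says whether an array held 1 animal or several, so the spread between arrays may be technical.

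Oxidative phosphorylation turns the electrons of nutrients into ATP. Complex I takes electrons from NADH and complex II takes them from succinate, both pass them to ubiquinone, complex III hands them to cytochrome c, and complex IV gives them to oxygen. Complexes I, III and IV pump protons as they work, and complex V, the ATP synthase, lets the protons flow back to make ATP. Neurons depend on this pathway for the ion pumping that follows synaptic activity, and all complexes except complex II also hold subunits encoded by mitochondrial DNA, which are not analysed here.

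Transcripts of OXPHOS subunits differed little between TCQA and water. The median log2 change (TCQA minus water) was -0.077 over the 87 genes, against 0.0028 over all 19572 transcript clusters tested, and 56 of the 87 were lower in TCQA (49.5% of all transcript clusters were). The changes ran from -0.68 for Ndufb8 to 0.43 for Sdha. By complex, the medians were -0.10 for complex I, 0.27 for complex II, -0.0090 for complex III, -0.093 for complex IV and -0.090 for complex V. Complex II was the complex without a subunit below the water mean. Leaving out 1 array moved the complex I median to -0.058 without TCQA 1 and to -0.16 without TCQA 2, those of complexes IV and V to -0.033 and -0.037 without water 1, and that of complex III to 0.018 without TCQA 1 and -0.096 without TCQA 2, while that of complex II stayed between 0.27 and 0.33.

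With limma (a linear model per transcript cluster with variances moderated over all of them) and Benjamini-Hochberg adjustment, 0 of the 87 passed, as did 0 of all transcript clusters, and the smallest adjusted p of a subunit gene was 0.673. An unadjusted p under 0.05, which 7.37% of all transcript clusters had in either direction, was reached by 4 of the 87 (4.60%), all lower in TCQA and all in complex I, where 3.89% of all transcript clusters were called in that direction. The share of subunit genes called lower was thus close to the background. In the other direction 0 of 87 were called, against 3.48% of all. The same model without moderation of the variance also gave 0 after adjustment, and 9 of the 87 with an unadjusted p under 0.05. The study's criteria, which ask for more than a 2-fold change besides that p, were met by 0 of 87 and by 0.664% of all.

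The groups did not overlap, with both TCQA arrays below both water arrays, for 31 of the 87 genes (35.6%), against 19.2% of all transcript clusters. Both TCQA arrays lay above both water arrays for 13 (14.9%), against 19.9% of all, while groups were apart in either direction for 39.2% of all. Changes below -0.2 were found for 28.7% of the subunit genes and 24.4% of all, and changes above 0.2 for 9.20% and 24.5%. The subunit genes share a tissue, a pathway and 4 arrays and are not independent of each other, so these shares are given without a test.

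**Figure D1:**
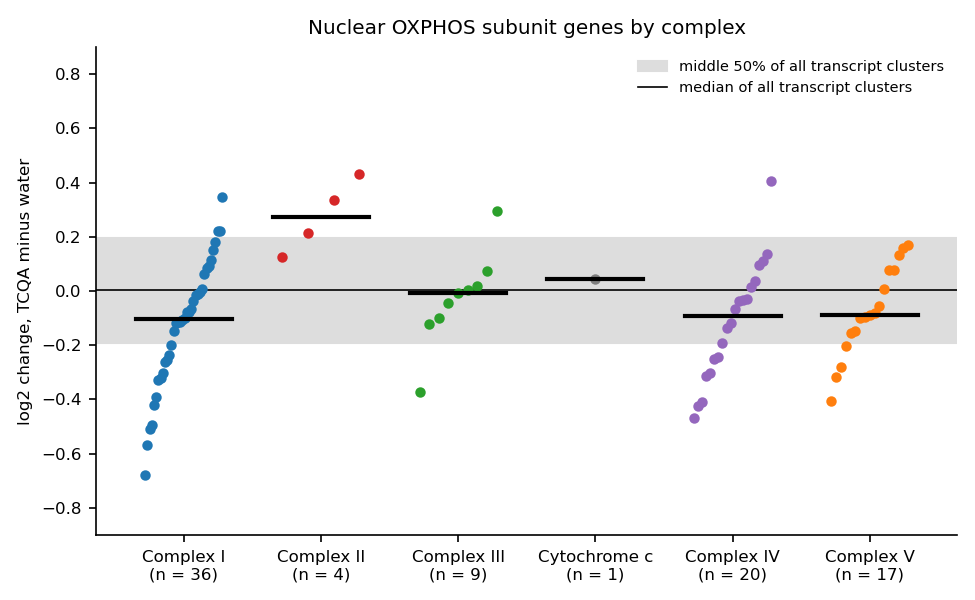
Log2 change between TCQA and water (vertical axis) of each of the 87 subunit genes, 1 point a gene, by complex, with the complex median as a thick bar. The grey band holds the middle 50% of all 19572 transcript clusters and the thin line is their median. All 4 complex II genes lie above 0, while the medians of complexes I, IV and V lie at -0.10, -0.093 and -0.090.

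The intervals rest on variances moderated over all transcript clusters, with 4.43 of the 6.43 degrees of freedom taken from the shared variance prior. Both parts come from the spread between 2 arrays per group, which may be technical. The intervals therefore need not bound a difference between animals. The 95% interval of the change lay within 2-fold in either direction for 82 of the 87 genes (94.3%), against 80.8% of all transcript clusters. The exceptions were Ndufb8, Ndufb10, Atp5e, Cox6a2 and Cox8c, whose intervals reached past a 2-fold decrease. Where both group means exceeded the 95th percentile of the negative control probe sets, the interval lay within 2-fold for 56 of 56 subunit genes. That held for 93.5% of the 3082 transcript clusters as bright. Among the 87, no interval reached a 2-fold increase, the highest upper bound being 0.95 for Cox4i2. The median absolute change was 0.13, and the absolute difference between the arrays of a group had a median of 0.13 for TCQA and 0.15 for water. The first is a difference between means of 2 arrays and the others are differences between single arrays.

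Complex I is the entry point for NADH electrons. It has an L shape, with an arm in the matrix that carries the flavin and the iron-sulphur clusters and an arm in the membrane that pumps protons, and its catalytic core is surrounded by accessory subunits that hold it together. In complex I, 26 of 36 genes were lower in TCQA and 10 were higher, with both TCQA arrays below both water arrays for 14 (38.9%, against 19.2% of all transcript clusters) and above them for 7 (19.4%, against 19.9%). For comparison, 49.5% of all transcript clusters were lower in TCQA. In both groups 23 of the 36 genes exceeded the 95th percentile of the negative control probe sets. Of these 23, 15 were lower in TCQA (65.2%, against 40.7% of transcript clusters as bright). The groups were apart on the lower side for 6 of the 23 and on the higher side for 6 (26.1% each). The shares for transcript clusters as bright were 16.5% lower and 29.2% higher. All 4 subunit genes with an unadjusted p under 0.05 were accessory subunits of this complex, Ndufb8, Ndufb10, Ndufa5 and Ndufa7, which is 11.1% of its 36 genes beside 3.89% of all transcript clusters called lower.

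The largest difference was that of Ndufb8, an accessory subunit of the membrane arm whose protein is widely used as a readout of assembled complex I. It stood at 7.51 and 7.94 (log2 signal) on the TCQA arrays and at 8.29 and 8.52 on the water arrays, so all TCQA values were below all water values. The change was -0.68 (SE 0.23, n = 2 arrays per group, limma, adjusted p = 0.673), a 1.60-fold lower signal with a 95% interval of the log2 change from -1.23 to -0.13. Ndufb10, another accessory subunit of the membrane arm, had values of 7.38 and 7.25 in TCQA against 7.78 and 7.98 in water. Its groups were likewise apart, with a change of -0.57 (SE 0.19), or 1.48-fold lower.

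Ndufa5, an accessory subunit of the matrix arm, stood at 11.98 and 11.81 on the TCQA arrays and at 12.30 and 12.50 on the water arrays. The groups did not overlap, and the change was -0.51 (SE 0.20), or 1.42-fold lower. Ndufa7, also of the matrix arm, stood at 5.92 and 6.07 against 6.39 and 6.59, a change of -0.49 (SE 0.20). All its values lay below 6.98, the median of the 5222 negative control probe sets, so that its size is uncertain. Ndufb8 and Ndufb10 lay between that median and the 95th percentile of the negative controls, 11.06, and of the 4 only Ndufa5 exceeded that percentile in both groups.

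The 4 genes were also fitted with each array left out in turn. Without TCQA 1 none of the 4 kept an unadjusted p under 0.05, with changes of -0.47 for Ndufb8, -0.63 for Ndufb10, -0.59 for Ndufa5 and -0.42 for Ndufa7. Without water 2 none kept it either, with changes of -0.56, -0.47, -0.40 and -0.39 in that order. Without TCQA 2, Ndufb8 kept it (-0.89) and Ndufb10 (-0.50), Ndufa5 (-0.42) and Ndufa7 (-0.57) did not. Without water 1, Ndufb8 (-0.80) and Ndufb10 (-0.66) kept it and Ndufa5 (-0.61) and Ndufa7 (-0.59) did not. Since both TCQA arrays lay below both water arrays for each of the 4 genes, leaving out 1 array could not change the direction. Of the 4, Ndufa5 and Ndufa7 lost the call with control probe sets in the variance prior and with a replicate block. Ndufa7 lost it also with an intensity trend in the prior and with quantile normalisation, and it was removed by the filter on dim signals. Without moderation of the variance Ndufb10 alone kept it.

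**Figure D2:**
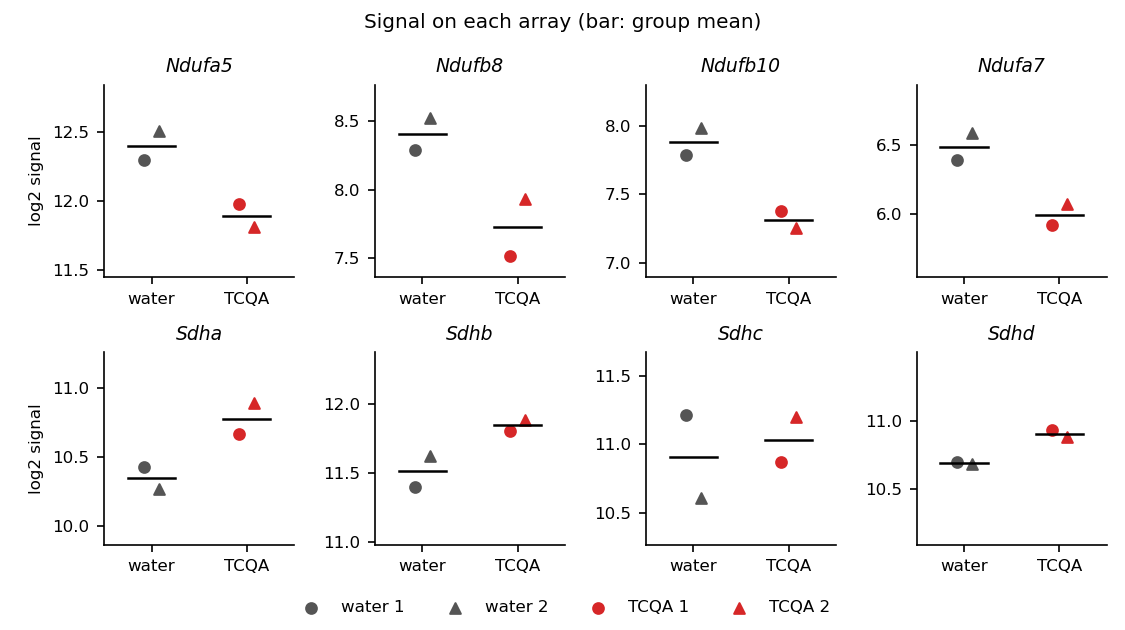
Log2 signal on each array for the 4 complex I genes with an unadjusted p under 0.05 (upper row) and the 4 complex II genes (lower row), with circles for replicate 1, triangles for replicate 2 and a bar at each group mean. Each panel has its own vertical range of the same width. TCQA lies below water in each upper panel, and above it for Sdha, Sdhb and Sdhd, while the Sdhc arrays overlap.

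The promoters of subunit genes are shown because these genes are known to share regulators. NRF1 (nuclear respiratory factor 1), the ETS factor GABP and YY1 are textbook activators of nuclear genes for the respiratory chain. A RefSeq table of promoters on GRCm38.p6 held 76 windows for 71 of the 87 genes, matched by gene identifier, and the 250 bases before each start were searched on both strands. The 4 windows below are those of called complex I genes and of Sdha, Sdhb and Sdhd that do not lie on a neighbouring annotated gene: Ndufa5 (chr6:24527691-24527940, minus strand), Ndufb8 (chr19:44555443-44555692, minus strand), Ndufb10 (chr17:24724424-24724673, minus strand) and Sdhb (chr4:140961021-140961270, plus strand). They read 5′ to 3′ and end at the base before the start, and capitals mark motif matches.
Ndufa5: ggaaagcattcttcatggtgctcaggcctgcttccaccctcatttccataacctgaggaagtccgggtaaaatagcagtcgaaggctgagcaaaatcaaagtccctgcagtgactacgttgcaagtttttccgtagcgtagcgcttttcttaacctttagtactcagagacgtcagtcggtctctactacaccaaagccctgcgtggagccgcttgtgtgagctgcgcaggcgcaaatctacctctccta
Ndufb8: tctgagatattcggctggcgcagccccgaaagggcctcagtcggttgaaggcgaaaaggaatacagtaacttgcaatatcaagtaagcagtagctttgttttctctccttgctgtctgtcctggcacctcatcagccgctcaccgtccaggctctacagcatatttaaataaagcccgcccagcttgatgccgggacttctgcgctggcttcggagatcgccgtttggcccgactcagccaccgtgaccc
Ndufb10: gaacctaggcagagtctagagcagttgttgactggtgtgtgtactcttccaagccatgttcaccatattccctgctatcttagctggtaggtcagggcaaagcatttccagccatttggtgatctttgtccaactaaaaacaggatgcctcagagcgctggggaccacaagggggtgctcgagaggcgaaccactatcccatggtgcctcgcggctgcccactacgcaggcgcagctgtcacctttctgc
Sdhb: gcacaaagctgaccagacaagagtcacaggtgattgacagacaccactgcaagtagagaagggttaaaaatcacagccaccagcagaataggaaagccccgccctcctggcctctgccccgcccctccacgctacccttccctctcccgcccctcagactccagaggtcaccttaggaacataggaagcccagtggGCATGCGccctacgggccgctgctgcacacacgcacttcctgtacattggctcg

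The letters searched were GCATGCG (the core of the palindromic NRF1 site), CCGGAAG (an ETS site) and ATGGCGG (a YY1 site), which do not overlap one another in the windows printed. The NRF1 letters were found in 10 of 76 windows of subunit genes (13.2%), against 3.01% of all 32817 windows and 4.37% of the 9269 windows with a GC content between 51.9% and 61.7%, the middle range of the subunit genes. The ETS letters were found in 15.8% against 6.91% of all and 9.28% of those in that GC range, and the YY1 letters in 6.58% against 2.21% and 2.67%. The shares of subunit genes are over all 76 windows, including those outside the GC range, so they are not matched to the last comparison in GC content. Subunit gene windows within that range were not counted apart. Of the windows printed, Sdhb held the NRF1 letters from 54 to 48 bases before its start, and none of the 3 was in the printed windows of Ndufa5, Ndufb8 and Ndufb10. Each printed window belongs to the gene's most upstream start in the table. A second window of Ndufa5, at a start further downstream and not printed, held the YY1 letters. The window of Sdhd held the ETS letters and both windows of Ndufa7 held the YY1 letters. A match is a run of letters and no measure of binding.

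The core subunits of complex I, which carry the flavin and the iron-sulphur clusters, did not show the lower values of the accessory ones. Of the 6 measured here, 4 were higher in TCQA and 2 lower, with a median of 0.090 and a range from -0.038 for Ndufv1 to 0.22 for Ndufs7. Ndufs7, which holds the last iron-sulphur cluster before ubiquinone, stood at 12.23 and 12.31 on the TCQA arrays and at 11.99 and 12.10 on the water arrays. Ndufs1, the large iron-sulphur subunit, stood at 12.13 and 12.02 against 11.88 and 11.91, a change of 0.18 (SE 0.19). The groups of Ndufs1, Ndufs7 and Ndufv2 did not overlap (3 of 6 higher, against 19.9% of all transcript clusters), yet the 95% interval of each change included 0. Of the 30 accessory subunits 24 were lower, with a median of -0.12, and the difference between core and accessory subunits was not tested. All 6 core subunits but only 17 of the 30 accessory ones exceeded the 95th percentile of the negative controls in both groups. The contrast is thus not matched for signal. Transcript clusters as bright had a median of 0.051, and 29.2% of them had groups apart on the higher side.

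The accessory subunits next in order of p were Ndufb11 and Ndufa6. Ndufb11, of the membrane arm, had values of 8.42 and 8.66 in TCQA against 9.01 and 8.92 in water, a change of -0.42 (SE 0.20). Ndufa6, a small subunit of the matrix arm, stood at 10.45 and 10.46 against 10.87 and 10.82, a change of -0.39 (SE 0.18). For both, the TCQA arrays lay below the water arrays and the interval included 0. Quantile normalisation and the filter on dim signals each brought both to an unadjusted p under 0.05, and Ndufa6 also reached it with an intensity trend and without moderation. Ndufb3 differed by -0.32 (SE 0.19) and Ndufb7 by -0.30 (SE 0.18), again with groups apart, and Ndufv3 by -0.33 (SE 0.23) with overlapping groups below the negative control median.

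The highest accessory subunit was Ndufb6, of the membrane arm, with 11.89 and 11.83 in TCQA against 11.60 and 11.43 in water. Its groups did not overlap, and the change of 0.35 (SE 0.19) had an interval from -0.11 to 0.80. Ndufb6 was called higher with an intensity trend in the prior. The genes with the brightest signals in this complex, Ndufb9, Ndufa12 and Ndufc1, differed by -0.10, 0.15 and -0.12. Ndufa12 lay at 14.85 and 14.76 against 14.67 and 14.64, the opposite order to Ndufb9, which lay at 15.47 and 15.35 against 15.52 and 15.51. Ndufb4 (-0.12) and Ndufb4b (-0.15) are near-identical copies, so signal may be shared between them. Ndufab1, the mitochondrial acyl carrier protein that also serves lipoic acid synthesis, differed by -0.11 (SE 0.21), and Ndufs4, whose loss in mice gives a model of Leigh syndrome, by -0.067 (SE 0.20).

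**Figure D3:**
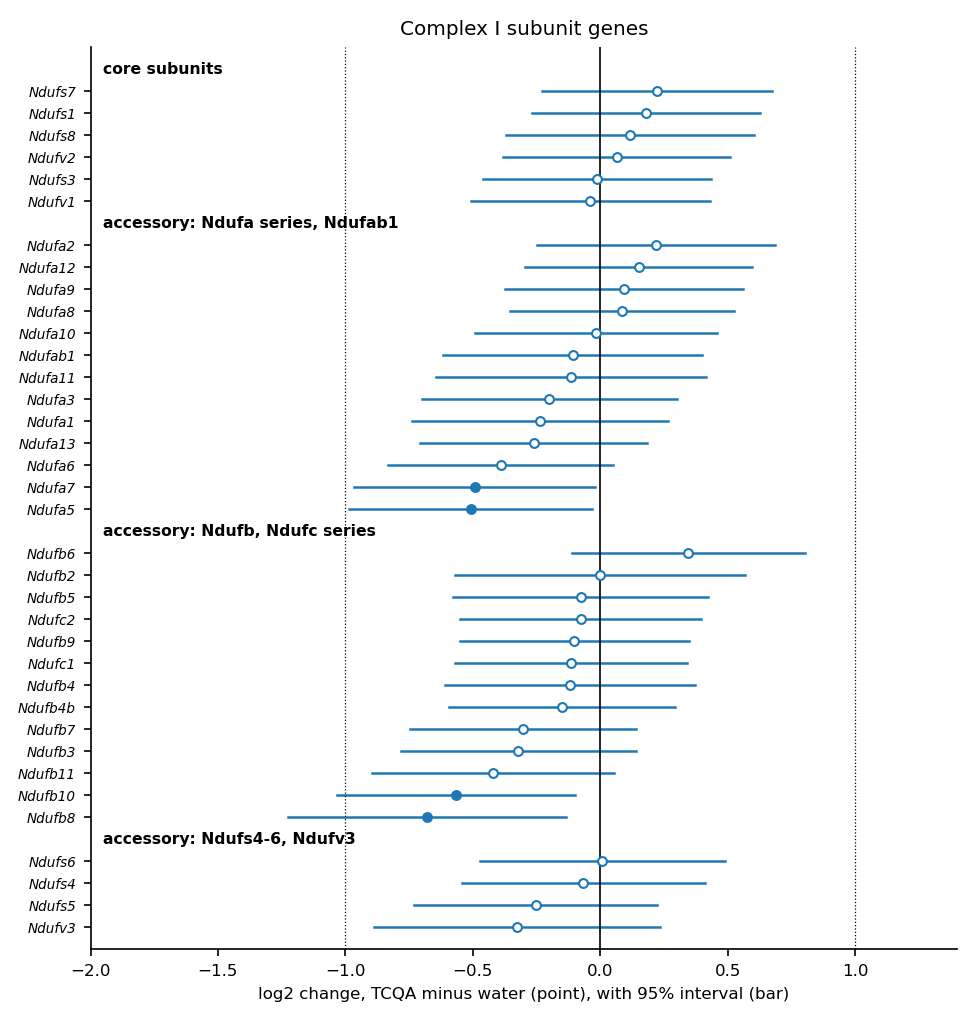
Log2 change between TCQA and water (horizontal axis) of the 36 complex I genes, with 95% intervals as bars, grouped into core subunits and series of accessory subunits. Filled points have an unadjusted p under 0.05, and dotted lines mark a 2-fold change. The 4 filled points, from -0.68 for Ndufb8 to -0.49 for Ndufa7, are accessory subunits, and the core subunits lie between -0.038 and 0.22.

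Complex II, succinate dehydrogenase, belongs to both the citrate cycle and the respiratory chain and pumps no protons. All 4 of its subunit genes were higher in TCQA, between 0.13 and 0.43, and 0 of 4 had an unadjusted p under 0.05. Both TCQA arrays lay above both water arrays for 3 of the 4, against 19.9% of all transcript clusters. Sdha, the flavoprotein that oxidises succinate, stood at 10.67 and 10.89 on the TCQA arrays and at 10.43 and 10.26 on the water arrays. Every TCQA value was above every water value, and the change was 0.43 (SE 0.20, limma, adjusted p = 0.685), or 1.35-fold, with an interval from -0.047 to 0.91. Sdha was called higher with an intensity trend in the prior and with the filter on dim signals. Sdhb, the iron-sulphur subunit, stood at 11.81 and 11.89 against 11.40 and 11.62. Its groups were apart as well, with a change of 0.33 (SE 0.19).

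The membrane anchors of complex II differed less. Sdhd had values of 10.93 and 10.88 in TCQA against 10.70 and 10.68 in water, a small gap of 0.21 (SE 0.18) between groups that did not overlap. Sdhc stood at 10.87 and 11.20 against 11.21 and 10.61, with the highest and the lowest value both in the water group. Its change of 0.13 (SE 0.27) turned to -0.040 without TCQA 2 and to -0.18 without water 2. With groups apart, Sdha, Sdhb and Sdhd could not fall below 0 when 1 array was left out, and Sdha lay between 0.32 and 0.55. Of the 4, only Sdhb exceeded the 95th percentile of the negative controls in both groups.

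Complex III passes electrons from ubiquinol to cytochrome c. Its 9 genes had a median change of -0.0090, 5 lower and 4 higher, and 0 had an unadjusted p under 0.05. The lowest was Uqcrq, a small subunit near cytochrome b, which stood at 11.33 and 11.26 on the TCQA arrays and at 11.64 and 11.70 on the water arrays. It was the 1 gene of the 9 (11.1%) whose groups did not overlap, against 39.2% of all transcript clusters, with a change of -0.37 (SE 0.18) and an interval from -0.82 to 0.072, and it was called lower with an intensity trend in the variance prior and without moderation. The highest was Uqcrfs1, the Rieske iron-sulphur protein, with 10.97 and 11.30 against 11.05 and 10.64, where water 1 lay above TCQA 1. Its change was 0.29 (SE 0.23).

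The others of complex III were close to equal. Uqcrh, the hinge protein that helps cytochrome c bind, had values of 13.78 and 13.77 in TCQA against 13.78 and 13.76 in water, with an interval of the change from -0.44 to 0.44. Cyc1, the haem protein cytochrome c1, differed by -0.12 (SE 0.22), and TCQA 2 was its lowest array at 8.68, the others lying between 9.02 and 9.12. The core proteins Uqcrc1 and Uqcrc2 differed by 0.075 and -0.045, and Uqcrb by -0.10. Cycs, cytochrome c itself, which also triggers apoptosis when released, stood at 16.04 and 16.13 against 16.11 and 15.96, a change of 0.046 (SE 0.19) between overlapping groups.

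Complex IV, cytochrome c oxidase, reduces oxygen to water. Of its 20 genes 14 were lower in TCQA, with a median of -0.093, and 0 had an unadjusted p under 0.05. Cox4i1, the general isoform of the subunit through which the enzyme responds to ATP, stood at 13.42 and 13.26 on the TCQA arrays and at 13.81 and 13.71 on the water arrays. The groups were clearly apart, with a change of -0.42 (SE 0.19, limma, adjusted p = 0.685), or 1.34-fold lower, and an interval from -0.88 to 0.035. Cox4i1 was called lower in 4 alternatives, namely an intensity trend in the prior, quantile normalisation, the filter on dim signals and no moderation. Cox7a2 (-0.30, SE 0.20) and Cox7b (-0.25, SE 0.21) were also lower on both TCQA arrays than on both water arrays. The brightest genes of the complex, Cox7c, Cox6a1 and Cox6c, differed by -0.068, -0.14 and -0.035, each with overlapping groups.

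Array TCQA 2 was the lowest of the 4 arrays for 12 of the 20 complex IV genes and water 1 the highest for 11. The subunit genes Cox5a (0.14) and Cox8a (0.097) lay on the other side, with Cox5a having 12.78 and 12.89 in TCQA against 12.74 and 12.65 in water. Ndufa4 differed by -0.030 (SE 0.20), and Cox6b1, a subunit on the intermembrane side, by -0.035. Cox7a2l, which joins complexes III and IV into supercomplexes, differed by -0.12 (SE 0.19), from 11.90 and 11.82 after water to 11.81 and 11.67 after TCQA. Its groups were separated by a gap smaller than the difference between the TCQA arrays.

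Several complex IV subunits have isoforms used mainly in other tissues, such as Cox6a2, Cox7a1 and Cox8b in heart and skeletal muscle, Cox6b2, Cox7b2 and Cox8c in testis, and Cox4i2 and Ndufa4l2 under low oxygen. In 7 of these 8 genes at least 1 group mean lay below the negative control median, the exception being Cox7b2 with 7.56 and 7.25 against 7.39 and 7.35. None of the 8 reached the 95th percentile of the negative controls, whereas all 11 general subunits did in both groups. Of 8 muscle markers 6 had a mean over the 4 arrays below the negative control median, and the others were Ckm (10.03 in TCQA and 10.31 in water) and Myl1 (7.62 and 6.96).

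The changes of these isoforms are therefore values near background. Cox4i2 had values of 5.95 and 5.79 in TCQA against 5.69 and 5.24 in water, a change of 0.41 (SE 0.23), and reached an unadjusted p under 0.05 without water 1 (0.63). Cox6a2 (-0.47, SE 0.33) and Cox8c (-0.41, SE 0.28) had overlapping groups, in which TCQA 1 was the lowest array at 5.99 and 6.19. Without TCQA 2 they stood at -0.84 and -0.77 with an unadjusted p under 0.05, and without TCQA 1 at -0.098 and -0.049. Cox7a1 differed by 0.015 and Ndufa4l2 by 0.11.

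Complex V, the ATP synthase, has a catalytic F1 head on a rotating stalk, a ring of c subunits that turns as protons pass, and a peripheral stalk that holds the head still. Its 17 genes had a median change of -0.090, 11 lower and 6 higher, and 0 had an unadjusted p under 0.05. Both TCQA arrays lay below both water arrays for 9 of the 17, against 19.2% of all transcript clusters. The changes of these 9 ran from -0.41 for Atp5e to -0.057 for Atp5o. Atp5b, the catalytic beta subunit, stood at 17.01 and 17.05 on the TCQA arrays and at 17.12 and 17.14 on the water arrays, a change of -0.098 (SE 0.18). Atp5a1, the alpha subunit, stood at 16.75 and 16.92 against 17.02 and 16.96, a change of -0.16 (SE 0.19).

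In the central stalk, Atp5c1, the rotating gamma subunit, stood at 14.95 and 14.93 in TCQA against 14.91 and 14.81 in water. It was the 1 gene of the 17 in complex V (5.88%) with both TCQA arrays above both water arrays. Of all transcript clusters 19.9% were. Atp5d, the delta subunit, differed by -0.20 (SE 0.20). Atp5e, the epsilon subunit, had the lowest change of the complex at -0.41 (SE 0.27), and it rested on 1 array. Atp5e stood at 7.95 on TCQA 2 and at 8.68, 8.71 and 8.74 on TCQA 1, water 1 and water 2. Without TCQA 2 its change was -0.040, and without TCQA 1 it was -0.77 with an unadjusted p under 0.05.

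The c subunit is made from 3 genes that encode the same mature protein, Atp5g1, Atp5g2 and Atp5g3, which differed by -0.082, 0.16 and 0.13 with overlapping groups in each. In all 3, water 2 was the lowest array. The peripheral stalk genes Atp5pb, Atp5h, Atp5j and Atp5o lay between -0.095 and 0.17. In the membrane part, Atp5l, the g subunit, stood at 11.35 and 11.32 against 11.47 and 11.84, a change of -0.32 (SE 0.21). Atp5k, the e subunit that helps synthase dimers form, differed by -0.28 (SE 0.21) with its TCQA mean below the negative control median.

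**Figure D4:**
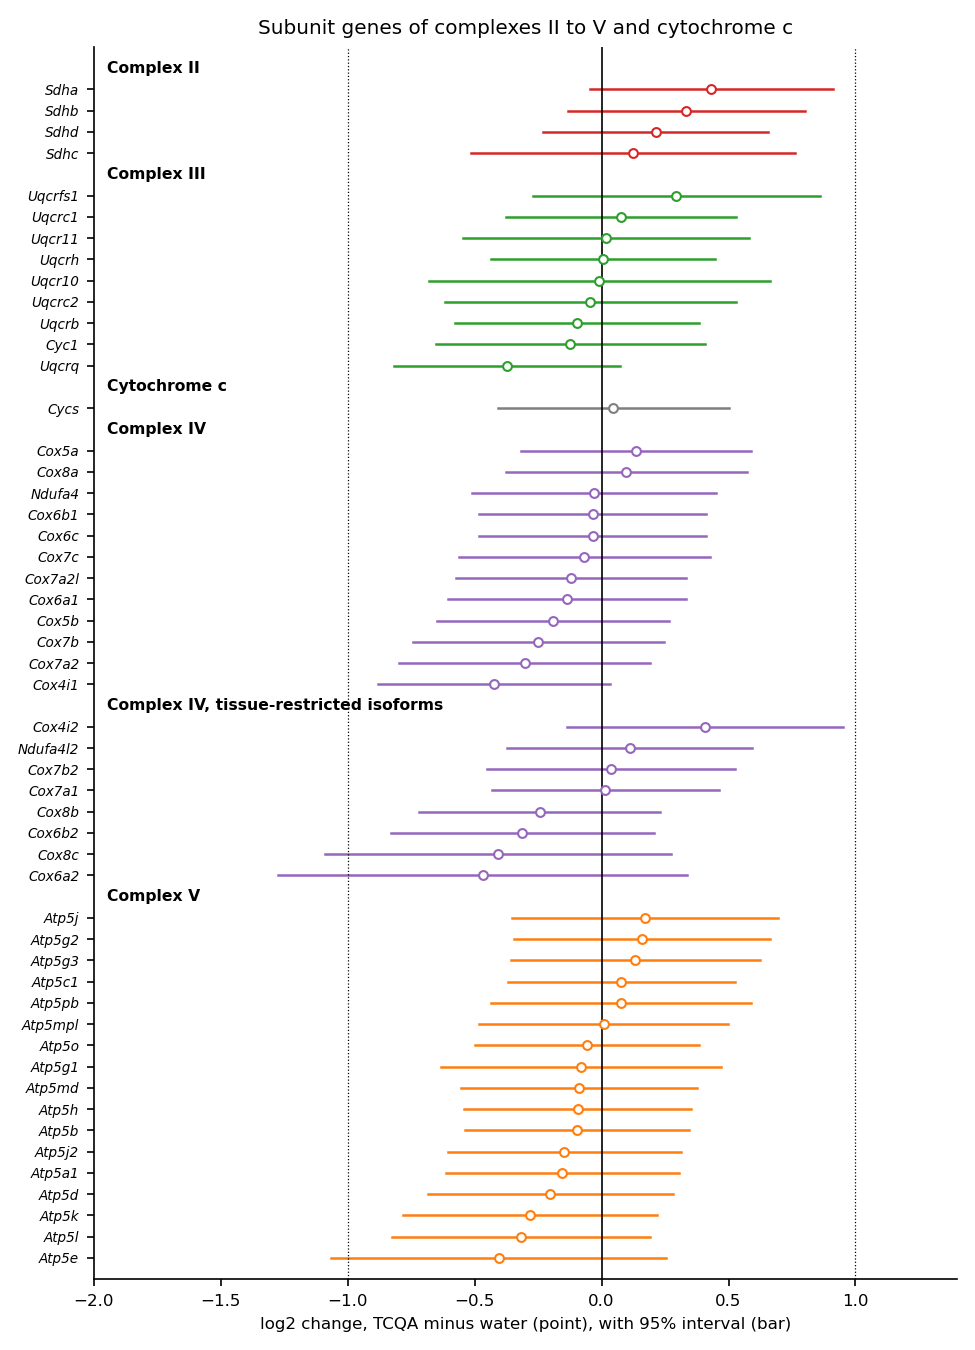
Log2 change between TCQA and water (horizontal axis) of the genes of complexes II to V and cytochrome c, with 95% intervals as bars and dotted lines at a 2-fold change. Open points have an unadjusted p of 0.05 or more, which holds for all of them. The complex II points lie between 0.13 and 0.43, and the isoforms of other tissues have some of the widest intervals.

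Signal strength bears on these values. Of the 87 genes, 56 exceeded the 95th percentile of the negative controls in both groups, and 10 had a group mean below the negative control median. The 56 bright genes had a median change of -0.067, with 36 lower and 1 (Ndufa5, 1.79%) called lower, where 0.909% of transcript clusters as bright were called in that direction and 3.70% in either. The 3082 transcript clusters as bright had a median of 0.051, and 40.7% of them were lower. Both TCQA arrays lay below both water arrays for 19 of the 56 (33.9%), against 16.5% of the transcript clusters as bright. The 31 dimmer genes had a median of -0.12.

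**Figure D5:**
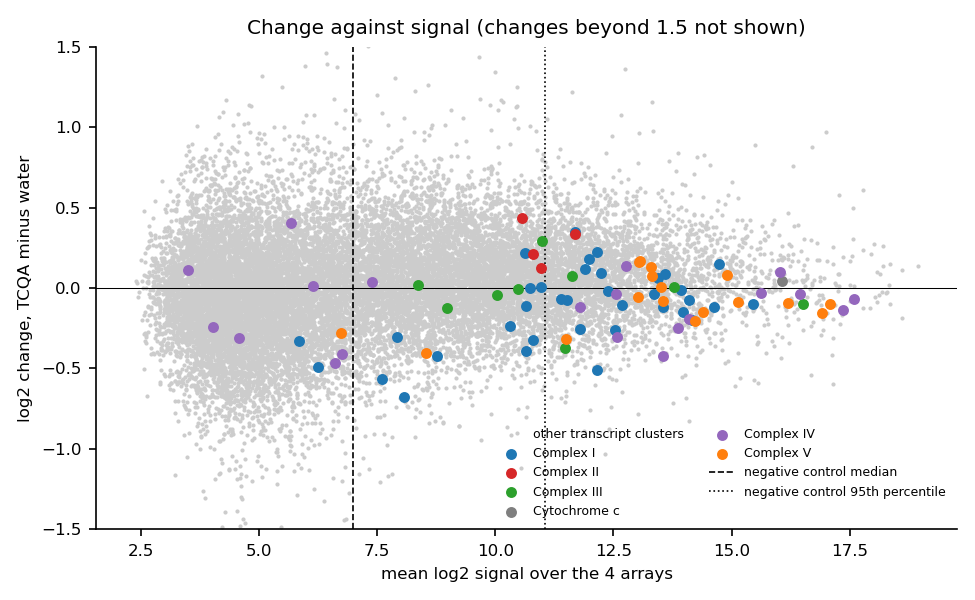
Log2 change between TCQA and water (vertical axis) against the mean log2 signal of the 4 arrays (horizontal axis) for all transcript clusters in grey and the 87 subunit genes in colour by complex. Vertical lines mark the median (6.98) and the 95th percentile (11.06) of the negative controls. Most subunit genes lie to the right of the second line and within 0.5 of 0, and 3 of the 4 called complex I genes lie to its left.

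Assembly factors build the complexes without staying in them, and they formed a list apart, of which 57 genes were measured. Their median change was 0.068, with 24 lower and 33 higher, 2 called lower (3.51%, against 3.89% of all transcript clusters) and 1 higher (1.75%, against 3.48%), so the shares called were not above the background. All 3 called genes serve complex III. Uqcc3, needed to stabilise newly made cytochrome b, stood at 8.58 and 8.37 on the TCQA arrays and at 9.43 and 9.19 on the water arrays, a change of -0.84 (SE 0.20, limma, adjusted p = 0.642), and it kept an unadjusted p under 0.05 in each alternative setting and with each array left out (-0.96 to -0.72). Uqcc2, which acts in the same step, stood at 10.99 and 10.88 against 11.54 and 11.39, a change of -0.53 (SE 0.19). Both were lower on each TCQA array than on each water array, but Uqcc2 lost its unadjusted p under 0.05 whichever array was left out (-0.60 to -0.45).

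Bcs1l, the ATPase that inserts the Rieske protein, went the other way, with 8.38 and 8.66 in TCQA against 8.11 and 7.80 in water, a change of 0.57 (SE 0.22), with a call that was lost when TCQA 2 (0.43) or water 2 (0.41) was left out, and also with control probe sets in the prior, with a replicate block and without moderation. For the other complexes 0 factors were called, and the medians were 0.039 over 18 complex I factors, -0.16 over 4 complex II factors, 0.086 over 23 complex IV factors and 0.21 over 6 complex V factors. The 4 complex II factors were all lower, unlike the 4 complex II subunits, with changes from -0.28 to -0.037, and Sdhaf1 and Sdhaf4 lay below the negative control median.

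The arrays differed in tissue markers, and in bulk tissue fewer cells of a type and less RNA per cell cannot be told apart. Of 9 excitatory neuron markers 6 exceeded the 95th percentile of the negative controls, and 8 of 9 were higher in TCQA with 2 called. Their mean was lower on water 1 (12.66) than on the other arrays (13.25 to 13.35). Endothelial markers were higher in 6 of 6, with 2 called (Slc2a1, 0.77, and Flt1, 0.67), and had means of 11.12 and 11.04 on the TCQA arrays and of 10.64 and 10.73 on the water arrays. Microglia markers were lower in 6 of 6 with 1 called, and thalamic markers were lower in 3 of 6 with all 3 called. Astrocyte markers were lower in 5 of 7 with 1 called, and inhibitory neuron markers were higher in 4 of 7 with 1 called. Of all transcript clusters, 49.5% were lower in TCQA. With an unadjusted p under 0.05 in limma, 3.48% of all were called higher and 3.89% lower. Striatal markers (6 of 6 lower in TCQA, 0 called) had means of 13.58 and 13.05 on the TCQA arrays and of 14.61 and 13.38 on the water arrays. Oligodendrocyte markers (6 of 7 lower, 1 called) had 11.81 and 11.81 against 12.56 and 11.89. Choroid plexus markers (7 of 7 lower, 5 called) had 8.18 and 7.32 against 9.84 and 9.06. Their median change was -1.93, the lowest was -4.06 for Ttr, and the 5 called also met the study's criteria, as did 0.664% of all transcript clusters. At least 1 group mean lay below the negative control median for 4 of the 7. Olfactory bulb markers (5 of 5 higher, 0 called) had 8.54 on TCQA 2 and 5.70 to 6.33 on the others. The subunit genes were most often highest on water 1, for 35 of 87, with a median deviation from the 4-array mean of 0.056 there and of -0.042, -0.017 and -0.010 on TCQA 1, TCQA 2 and water 2. The part of tissue composition in the OXPHOS values was not tested. Without water 1 the median change of the 87 genes was -0.037, and without TCQA 1 it was -0.046.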

How the data were processed

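Per the submitters' design text, the authors started cDNA synthesis from 100 ng of RNA and normalised the scans by SST-RMA (RMA after a signal space transformation), using version 4.0.2 of the Transcriptome Analysis Console. What they deposited is 1 log2 signal for each transcript cluster and array, with no depth, and SST-RMA can widen fold changes against plain RMA. No source used here gives the array's genome build. Promoter windows are from RefSeq on GRCm38.p6.

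Symbols came from the platform annotation. The 19572 transcript clusters with a symbol were fitted with limma 3.58.1 in R 4.3.3 (lmFit and eBayes, no block) and adjusted over all of them by Benjamini-Hochberg. With 2 arrays per group an exact permutation test cannot go below a p of 0.333, so none was run. Values between genes are not compared, since probes differ in brightness.

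The genes, lists and tests were chosen with earlier results of these data known. Named were, per complex, the 4 smallest p, the 3 brightest genes, all complex II and cytochrome genes, isoform groups and called assembly factors. The choice of further genes, and of subunit groups by role, was made with their values in view. As alternatives, each array was left out in turn, control probe sets were let into the variance prior, the prior was made robust or given a trend, a replicate block or array weights were added, dim signals were filtered, rows of a symbol were averaged, and arrays were centred or quantile normalised. The labels do not say whether equal replicate numbers pair the arrays. Deviations from the group mean of equal numbers correlated at -0.0032 across transcript clusters, which shows no shared shift but cannot settle the pairing. Figures used matplotlib 3.10.9 in Python 3.11.15.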

Additional observations from a re-analysis of the deposited data

How the results depend on the processing

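The precision is limited by 2 arrays per group, and where an array is left out the lone array of its group is assumed to vary like the other group. The number of subunit genes past the adjusted threshold and past the study's criteria was 0 in all settings run. The number lower in TCQA with an unadjusted p under 0.05, which was 4, all in complex I, became 2 (both in complex I) with control probe sets in the variance prior and 7 without moderation of the variance. With 1 array left out it lay between 0 and 3, and between 0 and 2 in complex I. The number higher in TCQA, which was 0, became 2 with an intensity trend in the prior, 1 with the filter on dim signals and 2 without moderation, and lay between 0 and 1 with 1 array left out. With an intensity trend Sdha and Ndufb6 were called higher, and Sdha also with the dim-signal filter. Outside complex I, Cox4i1 was called lower with an intensity trend, quantile normalisation, the dim-signal filter and no moderation, Uqcrq with the trend and no moderation, and Atp5b with no moderation, while Sdhd was called higher with no moderation.

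With the replicate number as a block, 2 subunit genes were called lower (both in complex I) and 0 higher. The labels do not say whether the numbers pair the arrays. The block left each change as it was, so a call lost there is not a smaller change, and no median moved.

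Quantile normalisation moved the median change to -0.12 over all subunit genes, -0.15 in complex I and -0.092 in complex III. With 1 array left out the medians ran from -0.11 to -0.037 over all, -0.16 to -0.058 in complex I, 0.27 to 0.33 in complex II, -0.096 to 0.018 in complex III, -0.13 to -0.033 in complex IV and -0.13 to -0.037 in complex V. Placing Ndufa4 and Ndufa4l2 in complex I, an alternative chosen after seeing the data, gave -0.089 for complex I and -0.13 for complex IV. Of the 36 calls of single named genes that changed side, 22 were lost and 14 gained, and none reversed. The causes were not tested.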
